A study of Mus musculus with 12 samples.

Results

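Laminins are cross-shaped proteins of 1 α, 1 β and 1 γ chain that polymerize into the sheet of the basement membrane, and integrins are receptors of 1 α and 1 β subunit that hold cells to it and to other matrix proteins. In skeletal muscle every fiber lies in a tube of laminin, which it grips through an integrin and through dystroglycan, while blood vessels, nerves, fibroblasts and leukocytes in the tissue carry further chains and subunits. The genes described here are those whose single annotated symbol is that of a laminin chain or an integrin subunit, with the integrin-binding proteins of similar name left out. The choice rested on symbols alone, though it was made with earlier results of these data known. It gave 39 transcript clusters of 38 genes, among 28944 transcript clusters and 19938 genes on the array. Of these, 10 are laminin chains, 18 are integrin α subunits and 10 carry an integrin β symbol. Among the β symbols Itgbl1 encodes an integrin β-like protein with repeats of the β stalk, not a receptor subunit.

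The values come from gastrocnemius muscle of 12 male germ-free mice of the strain Tsl;ICR[GF], aged 11 weeks, 1 array per mouse. The 6 recipient-sedentary (RS) mice had been given feces of sedentary ICR donors by gavage, and the 6 recipient-trained (RT) mice feces of donors trained on a treadmill, with muscle taken at week 1. Both groups ate a high-fat diet. The methods state that mice shared cages and received identical fecal samples, which is read here as within each group because the donors differed. Cage and fecal sample then cannot be told apart from donor training, and a p-value measures the spread between these mice. The study asked how the microbiota of trained donors affects muscle metabolism. Skeletal muscle fiber markers were bright on every array, with a mean log2 signal of 11.6 to 11.9 over the list. Between the groups limma called 0 of 16 (0 at an unadjusted p under 0.05), against 31.3% of transcript clusters brighter than the median. Whether a change in fiber content would show in markers this bright was not tested, so the count does not establish equal fiber content. As a measured limit, RS-4 and RS-6 stood apart from the other mice: the SD over all transcript clusters was 1.98 and 1.99 on these arrays and 2.06 to 2.15 on the others. Results are therefore also given without both. In whole muscle, fewer cells of a type and less RNA per cell cannot be told apart.

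Of the 10 laminin chains 5 were higher in RT, among them the main α chain of the muscle fiber basement membrane, together with the β1 integrin subunit and several of its partners. In RT, 16 of the 38 genes were higher and 4 lower, while 18 fell short of the test (limma, unadjusted p under 0.05 and adjusted p under 0.1). The 5 laminin chains Lama2, Lama4, Lamb1, Lamb2 and Lamc1 rose, and so did Itgb1, Itga1, Itga7, Itga8, Itga9, Itga11, Itgav, Itgb5, Itgam, Itgb2 and Itgbl1. Lama1, Lamc3, Itga2b and Itgad fell. By transcript cluster, 41.0% of the members were higher and 10.3% lower, against 11.9% higher and 13% lower over the whole array, where 24.9% were called in either direction. The median log2 change of the 38 genes was 0.20, against 0.0083 over all genes with 1 symbol. Brightness moved with the direction of a call across the array: of the transcript clusters brighter than the median 31.3% were called (20.6% higher and 10.7% lower), and of the dimmer ones 18.5% (3.21% and 15.3%). Of the 27 brighter member transcript clusters 15 were higher and 2 lower, and of the 12 dimmer ones 1 was higher and 2 were lower.

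**Figure D1:**
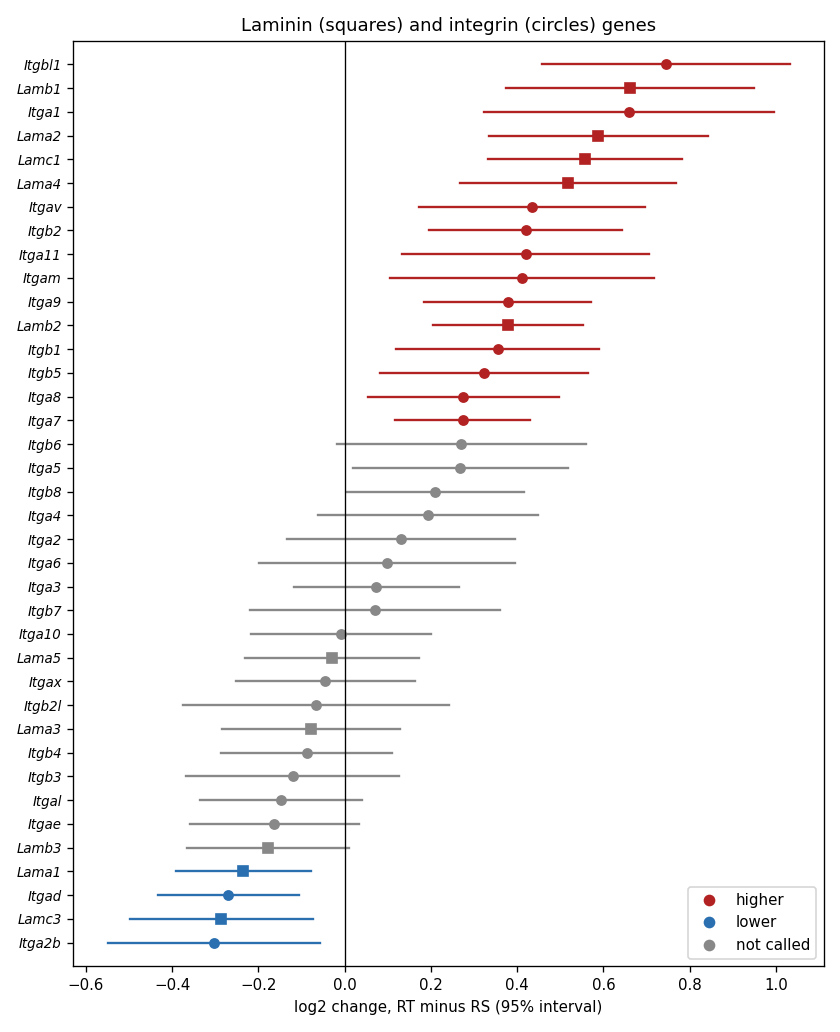
Log2 change (RT minus RS, horizontal axis) of each of the 38 laminin genes (squares) and integrin genes (circles), 1 row per gene, with its 95% interval from limma. Genes called higher are red, genes called lower blue and the others gray; the changes run from −0.30 for Itga2b to 0.75 for Itgbl1.

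Not every call was equally firm. Under every alternative run, 7 of the 20 genes stayed called, namely Lama2, Lamb1, Lamb2, Lamc1, Itga9, Itgb2 and Itgbl1. When RS-4 and RS-6 were left out, 10 member transcript clusters (25.6%) were higher and 0 lower, against 5.70% and 6.19% over the array, where 11.9% were called. The genes still called by limma were these 7 with Lama4, Itga1 and Itga7. A spread covariate, the SD of an array over all transcript clusters, left 8 member transcript clusters (20.5%) higher and 0 lower, against 2.53% and 3.07% over the array. In that limma fit the 7 genes and Itga7 were called. After cyclic loess between arrays 38.5% of the members were higher and 5.13% lower, against 9.57% and 9.73% of the array (19.3% in either direction).

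RefSeq promoter windows (GRCm38.p6) were at hand for 25 of the 38 genes, 12 of them called higher. Those of Lama2, Lamb1 and Lamb2, which rose together as chains of 1 protein family, of their receptor subunit Itgb1, and of the leukocyte subunit Itgam are shown, as the 250 bases before the annotated start, 5′ to 3′ on the strand of the gene. Capitals mark the GC box GGGCGG or its complement CCGCCC, a motif bound by Sp1. The Lama2 window lies at chr10:27616943-27617192 (minus strand), that of Lamb1 at chr12:31265043-31265292, that of Lamb2 at chr9:108479612-108479861, that of Itgb1 at chr8:128685404-128685653 and that of Itgam at chr7:128062390-128062639 (plus strand for the last 4).
Lama2: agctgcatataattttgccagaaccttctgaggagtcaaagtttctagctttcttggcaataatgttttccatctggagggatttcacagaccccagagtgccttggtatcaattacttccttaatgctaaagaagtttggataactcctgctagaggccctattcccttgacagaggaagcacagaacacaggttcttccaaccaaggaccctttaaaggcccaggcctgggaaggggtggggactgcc
Lamb1: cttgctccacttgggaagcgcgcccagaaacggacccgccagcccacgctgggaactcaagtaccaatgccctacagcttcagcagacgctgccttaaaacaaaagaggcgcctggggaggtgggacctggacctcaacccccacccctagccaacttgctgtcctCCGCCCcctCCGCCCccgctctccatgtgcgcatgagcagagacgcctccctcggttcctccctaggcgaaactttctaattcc
Lamb2: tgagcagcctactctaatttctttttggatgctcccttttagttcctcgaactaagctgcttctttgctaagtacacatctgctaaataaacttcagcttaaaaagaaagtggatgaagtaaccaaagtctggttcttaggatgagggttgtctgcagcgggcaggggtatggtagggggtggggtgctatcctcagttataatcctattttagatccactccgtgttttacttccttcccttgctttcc
Itgb1: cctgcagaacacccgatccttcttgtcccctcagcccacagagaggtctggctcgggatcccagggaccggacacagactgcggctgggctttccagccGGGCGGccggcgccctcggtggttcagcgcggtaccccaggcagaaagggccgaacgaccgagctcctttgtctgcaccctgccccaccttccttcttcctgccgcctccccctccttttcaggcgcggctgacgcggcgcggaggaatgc
Itgam: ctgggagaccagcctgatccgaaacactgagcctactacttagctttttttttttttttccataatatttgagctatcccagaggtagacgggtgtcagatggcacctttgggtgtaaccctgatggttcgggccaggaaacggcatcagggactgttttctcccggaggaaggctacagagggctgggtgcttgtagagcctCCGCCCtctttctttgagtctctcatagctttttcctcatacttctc
The Lamb1 window held 2 GC boxes, those of Itgb1 and Itgam held 1 each, and those of Lama2 and Lamb2 held 0. The GC content was 62.0% for Lamb1 and 68.0% for Itgb1, and 47.2% for Lama2, 43.6% for Lamb2 and 49.6% for Itgam. A GC box on either strand was in 35.7% of the 28 windows of member genes (10 windows) and in 5 of the 12 windows of genes called higher, against 32.7% of all 32851 windows. The TATA box TATAAA (or TTTATA) was in 0 of these 28 windows, against 12.4% of all windows, and the CCAAT box (CCAAT or ATTGG) was in 17.9% against 33.8%. These are matches of letters within the 250 bases, on both strands, and a match is not a site shown to be bound.

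Among laminins, both β chains and the γ chain of muscle rose with 2 of the α chains. Lama2, the α chain of the muscle fiber basement membrane whose loss causes a congenital muscular dystrophy, had a log2 signal of 6.94 to 7.68 in RS (median 7.33) and 7.69 to 8.10 in RT (median 7.88). No RS mouse reached the lowest RT mouse. The log2 change was 0.59 (standard error 0.12, adjusted p = 0.00576 from limma). Lama4, an α chain of small vessels and nerves, lay at 6.18 to 6.82 in RS (median 6.50) and at 6.85 to 7.33 in RT (median 6.89). The groups again did not overlap, and the change was 0.52 (standard error 0.12, adjusted p = 0.0106), which did not pass with the spread covariate (0.30).

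Lamb1, a β chain found in most basement membranes, had the largest change of the laminins, from 6.14 to 6.95 in RS (median 6.79) to 7.03 to 7.55 in RT (median 7.34). The change was 0.66 with a standard error of 0.14 (limma, adjusted p = 0.00590). Lamb2, the β chain enriched at the neuromuscular junction, went up by 0.38 (standard error 0.08, adjusted p = 0.00856), from 7.33 to 7.73 in RS (median 7.54) to 7.82 to 8.05 in RT (median 7.90). Lamc1, the γ chain that nearly all laminins of muscle share, lay at 7.34 to 7.95 in RS (median 7.76) and at 8.10 to 8.43 in RT (median 8.21). Its change was 0.56 (standard error 0.11, adjusted p = 0.00403). None of these 3 chains overlapped between the groups, and each had an exact permutation p of 0.00216, the smallest that 6 against 6 mice can give. Over the array, RT lay above RS without overlap in 2.69% of transcript clusters and below in 3.10%.

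Of the other 5 chains, 2 fell and 3 did not pass the test. Lama1, the α chain of the early embryo, lay at 3.74 to 3.99 in RS (median 3.83) and at 3.46 to 3.68 in RT (median 3.63). It fell by 0.23 on the log2 scale (standard error 0.07, adjusted p = 0.0425 from limma) without overlap between the groups. That call ended under 6 alternatives, among them centering each array on its median and leaving out RS-4 and RS-6 (−0.19). Lamc3, a further γ chain, lay at 4.81 to 5.25 in RS (median 4.96) and at 4.48 to 4.95 in RT (median 4.70). It fell by 0.29 (standard error 0.10, adjusted p = 0.0625), and 4 RT mice were below all RS mice. Its call ended without any 1 of RS-4, RS-6, RT-1, RT-2 and RT-6 (change −0.29 to −0.24, adjusted p = 0.102 to 0.135). Lama5, an α chain of vessels, had a change of −0.03 with a 95% interval from −0.23 to 0.17, and the epithelial chains Lama3 and Lamb3 had changes of −0.08 and −0.18 (adjusted p = 0.853, 0.602 and 0.173).

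**Figure D2:**
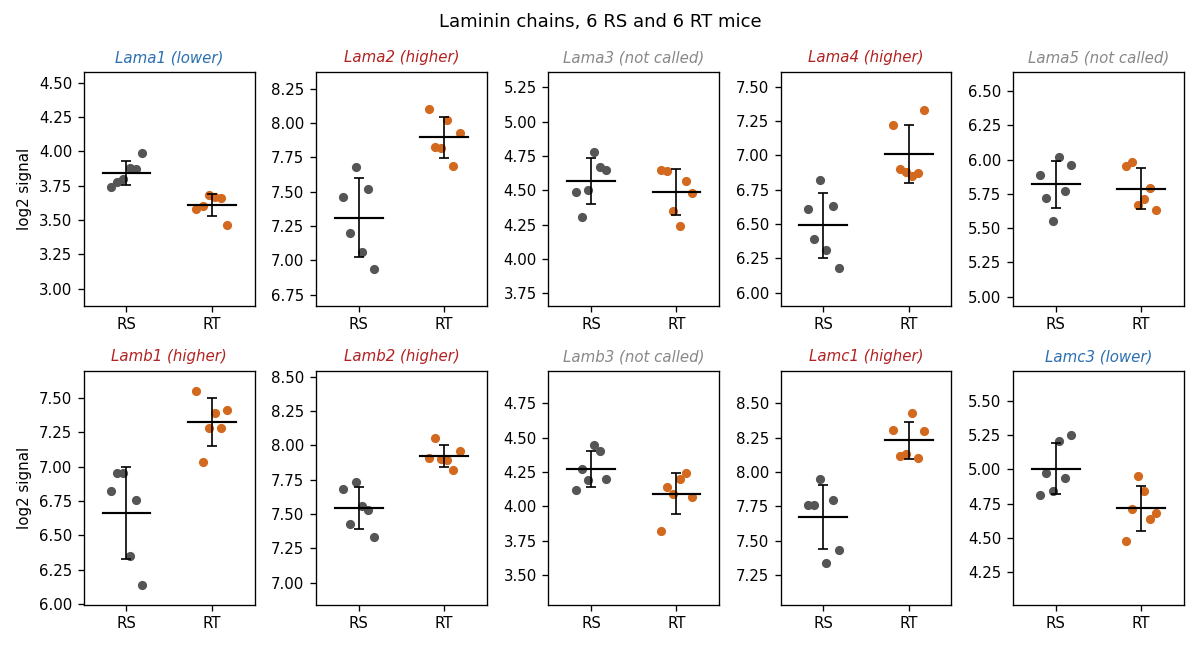
Log2 signal of the 10 laminin chains in 6 RS mice (gray) and 6 RT mice (orange), 1 point per mouse, with the group mean and SD in black. The vertical axes differ in level and have the same span; RS and RT do not overlap for Lama1, Lama2, Lama4, Lamb1, Lamb2 and Lamc1.

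The mice of each group were not alike in these chains. Centered on the mean of all mice, the mean of Lama2, Lama4, Lamb1, Lamb2 and Lamc1 was −0.60 in RS-6 and −0.48 in RS-4, and −0.26 to 0.020 in the other RS mice. In RT it lay between 0.15 in RT-5 and 0.41 in RT-1. RS-3 was the RS mouse nearest the RT mice, and it had the highest RS value in 11 of the 16 genes called higher. Over all 10 laminin chains the same mean lay at −0.21 to −0.012 in RS and at 0.053 to 0.14 in RT, and over the 28 integrin genes at −0.14 to 0.024 and at 0.026 to 0.14.

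Itgb1, the β subunit that pairs with more α subunits than any other, rose in RT with 5 of the 9 α subunits that pair with it alone. Over the array, 13.9% of all genes and 20.6% of transcript clusters brighter than the median were higher. Among Itgb1 and the α subunits that rose with it, Itga9 alone stayed called under every alternative. The log2 signal of Itgb1 was 8.09 to 8.82 in RS (median 8.49) and 8.71 to 8.90 in RT (median 8.77). The RT mice were close together and above 5 of the 6 RS mice, while RS-3 at 8.82 lay among them. The change was 0.36 (standard error 0.11, adjusted p = 0.0416 from limma), and it did not pass without RS-4 and RS-6 (0.19) or with the spread covariate (0.13). Among laminin receptors, Itga7, which pairs with β1 as the main laminin-binding integrin of muscle fibers, had a narrow range of 6.36 to 6.63 in RS (median 6.57) and 6.73 to 6.91 in RT (median 6.80). All RT mice lay above all RS mice, with a change of 0.27 (standard error 0.07, adjusted p = 0.0229). Itga7 stayed called without RS-4 and RS-6 (0.29) but not after a further quantile normalization or cyclic loess (0.14 under each). The other α subunits of laminin receptors, Itga3 and Itga6, had changes of 0.07 and 0.10 (adjusted p = 0.599 and 0.653), and Itgb4, which pairs with α6 in epithelia, one of −0.09 (adjusted p = 0.534).

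Of the 4 collagen-binding α subunits, Itga1 and Itga11 rose. Itga1, a receptor for basement membrane collagen on vessels and mesenchymal cells, lay at 5.71 to 6.60 in RS (median 5.89) and at 6.16 to 6.98 in RT (median 6.85). RT-4 and RT-5 lay below RS-3, and the other 4 RT mice above every RS mouse. The change was 0.66 (standard error 0.16, adjusted p = 0.0139 from limma). Itga11, a receptor for fibrillar collagen on fibroblasts, lay at 4.38 to 5.27 in RS (median 5.08) and at 5.20 to 5.64 in RT (median 5.28). Its change of 0.42 (standard error 0.14, adjusted p = 0.0461) did not pass without RS-4 (0.36) or without RT-6 (0.37), nor without RS-4 and RS-6 together (0.21). Itga2 and Itga10, the other 2 of this kind, had changes of 0.13 and −0.0083 (adjusted p = 0.490 and 0.963). Itga1 and Itga2 are neighboring genes on chromosome 13.

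Receptors for fibronectin, vitronectin and tenascin came next. Itgav, the α subunit of vitronectin receptors and of receptors that release active TGF-β, lay at 6.04 to 6.91 in RS (median 6.50) and at 6.78 to 7.01 in RT (median 6.95). The change was 0.43 (standard error 0.12, adjusted p = 0.0288 from limma). Of the RT mice 4 were above all RS mice, and the call did not pass without RS-4 and RS-6 (0.26) or with the spread covariate (0.19). Itgb5, a β partner of αv, lay at 7.06 to 7.78 in RS (median 7.49) and at 7.54 to 7.97 in RT (median 7.80). It rose by 0.32 (standard error 0.11, adjusted p = 0.0636), and its call ended without any 1 of RS-4, RS-6, RT-1, RT-2 and RT-6 (0.24 to 0.32, adjusted p = 0.104 to 0.129). The further partners of αv did not pass, with changes of 0.27 for Itgb6, 0.21 for Itgb8 and −0.12 for Itgb3 (adjusted p = 0.181, 0.144 and 0.497). Itga9, which binds tenascin-C and serves lymphatic valves, had 5.29 to 5.77 in RS (median 5.53) and 5.82 to 6.02 in RT (median 5.89). The groups were apart, and the change was 0.38 (standard error 0.09, adjusted p = 0.0141). Itga4, its nearest relative and a receptor for VCAM-1, had a change of 0.19 (adjusted p = 0.279). Itga8, a nephronectin receptor of mesenchymal cells, lay at 4.33 to 4.84 in RS (median 4.54) and at 4.59 to 5.11 in RT (median 4.84), and 3 RT mice were above every RS mouse. It rose by 0.28 (standard error 0.11, adjusted p = 0.0828), a call that ended when any 1 of RS-4, RS-5, RS-6, RT-1, RT-2, RT-3 and RT-6 was left out (0.22 to 0.29, adjusted p = 0.105 to 0.177). Itga5, the classical fibronectin receptor, had a change of 0.27 (adjusted p = 0.127).

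The largest change of the 38 genes was in Itgbl1, the β-like gene without a place in a receptor. Its log2 signal was 4.71 to 5.71 in RS (median 5.28) and 5.75 to 6.17 in RT (median 5.97). The groups did not overlap, and RS-3 was again the nearest RS mouse. The log2 change was 0.74, with a standard error of 0.14 and an adjusted p of 0.00313 (limma), a 1.68-fold higher signal.

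**Figure D3:**
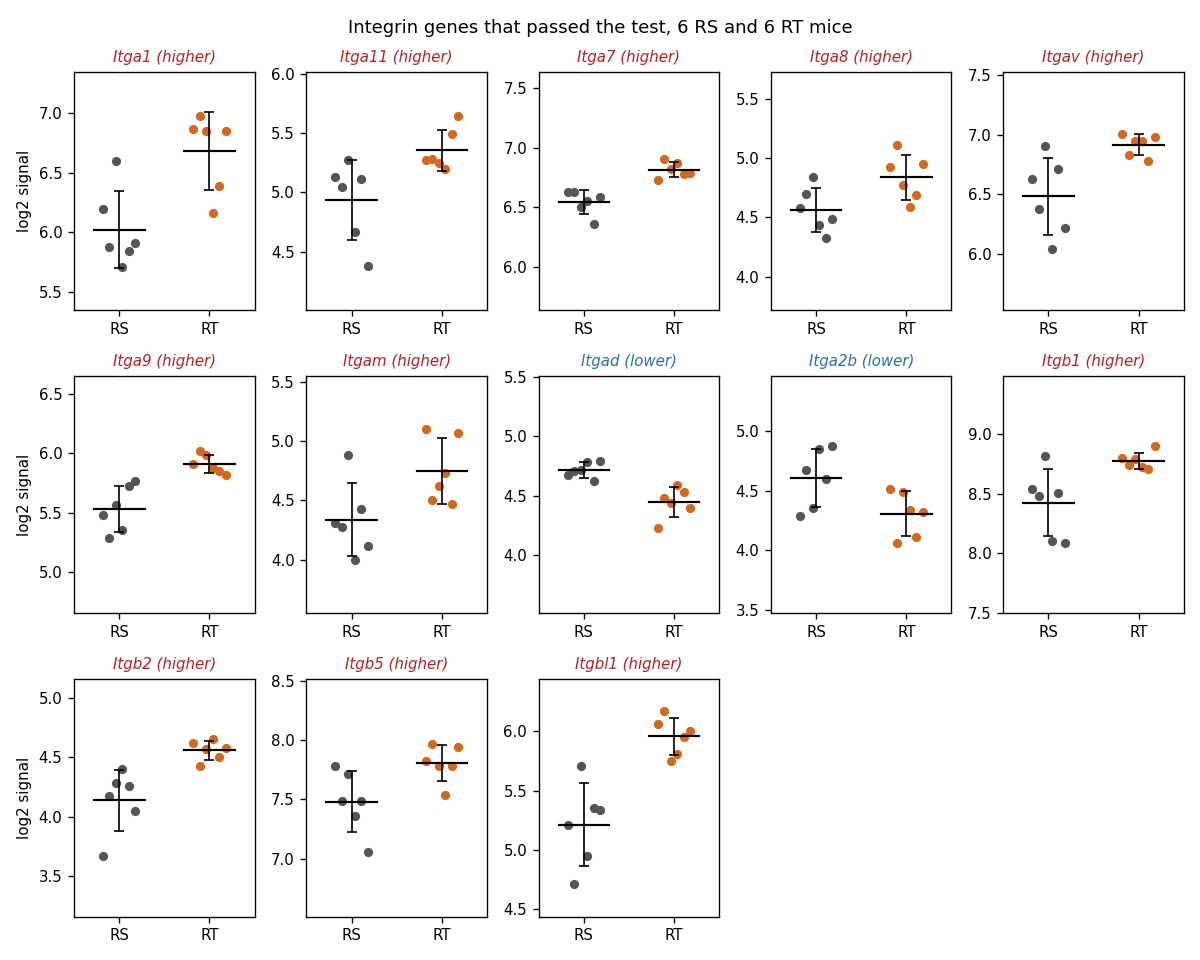
Log2 signal of the 13 integrin genes that passed the test in 6 RS mice (gray) and 6 RT mice (orange), 1 point per mouse, with the group mean and SD in black; the vertical axes differ in level and have the same span. RS and RT do not overlap for Itga7, Itga9, Itgad, Itgb2 and Itgbl1, and for Itgb1 the RS mouse at 8.82 lies among the RT mice.

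The integrins of leukocytes moved in both directions. Itgb2, the β subunit shared by the leukocyte integrins, lay at 3.67 to 4.40 in RS (median 4.21) and at 4.43 to 4.65 in RT (median 4.58). Without overlap between the groups, the change came to 0.42 (standard error 0.11, limma adjusted p = 0.0172). Itgam, its partner in complement receptor 3 of macrophages and neutrophils, lay at 4.00 to 4.88 in RS (median 4.29) and at 4.47 to 5.10 in RT (median 4.67). RT-1 and RT-6 alone lay above every RS mouse. The change was 0.41 (standard error 0.14, adjusted p = 0.0632), and the call ended without any 1 of RS-4, RS-6, RT-1 and RT-6 (0.34 to 0.37, adjusted p = 0.126 to 0.140). Itgad, the third gene of the run Itgam, Itgax and Itgad on chromosome 7, lay at 4.62 to 4.79 in RS (median 4.71) and at 4.23 to 4.59 in RT (median 4.46). It fell by 0.27 (standard error 0.08, adjusted p = 0.0290), with every RT mouse below every RS mouse. It is the 1 gene here with a second transcript cluster, which fell short of the test (−0.26, adjusted p = 0.127), and the call ended without RS-4 and RS-6 (−0.23). Itgal, the α subunit of LFA-1, Itgax (CD11c) and Itgae, which binds E-cadherin, had changes of −0.15, −0.05 and −0.16 (adjusted p = 0.255, 0.779 and 0.230). Itgb7, the partner of Itgae, and Itgb2l, a relative of Itgb2, had changes of 0.07 and −0.07 (adjusted p = 0.752 and 0.779).

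Itga2b, the α subunit of the platelet fibrinogen receptor, fell by 0.30 (standard error 0.12, adjusted p = 0.0845 from limma). Its range was 4.29 to 4.88 in RS (median 4.64) and 4.06 to 4.52 in RT (median 4.33), so that 2 RT mice lay below every RS mouse. Its call ended when any 1 of 8 mice was left out (RS-2, RS-4, RS-5, RS-6, RT-2, RT-4, RT-5 or RT-6, with changes of −0.31 to −0.25 and adjusted p = 0.115 to 0.175). Platelet markers moved with it in no single direction: of 5 measured, 2 were higher and 1 was lower. Pf4 was up by 0.56 and Gp9 down by 0.29. Over all genes 13.9% were higher and 10.7% lower. The platelet list was dim on average, and of the transcript clusters dimmer than the median 3.21% were higher and 15.3% lower.

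Whether the 2 members of a receptor or the alternative chains of a laminin changed unequally was asked within each mouse, by the difference of 2 log2 signals. The 15 α subunits that pair with a single β were compared with it, and 4 pairs of laminin chains with each other, a choice made after the values were seen. Of these 19 pairs, 4 had an adjusted p under 0.05 (exact permutation test, two-sided, adjusted over the pairs). The changes of Itgal, Itgax and Itgad lay below that of Itgb2, with differences of −0.57 (95% interval −0.83 to −0.31), −0.46 (−0.74 to −0.19) and −0.69 (−0.96 to −0.42) on the log2 scale. The adjusted exact permutation p was 0.0137 in each, and the differences were −0.59, −0.47 and −0.70 without RS-4 and RS-6. With those mice left out the adjusted exact permutation p was 0.0603 in each, from the smallest unadjusted p that 4 against 6 mice can give (0.00952). These 3 pairs share the values of Itgb2, so they are not independent results. Itgal and Itgax were not called and were dim, with mean log2 signals of 3.56 and 2.97 over all mice. Itgb2 was at 4.35, and the array-wide median was 4.489. Itgam differed from Itgb2 by −0.0083, with an interval of −0.42 to 0.40.

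Of the laminin chains, Lama2 rose more than Lama5, by 0.62 (95% interval 0.18 to 1.05, adjusted exact permutation p = 0.0411). This call ended without RS-4 and RS-6, with a difference of 0.38 and an adjusted exact permutation p of 0.181. Lama4 differed from Lama5 by 0.55 (0.12 to 0.97, adjusted exact permutation p = 0.0740). Lama2 and Lama4 differed by 0.07 (−0.11 to 0.25), and Lamb1 and Lamb2 by 0.28 (−0.04 to 0.61), with adjusted exact permutation p-values of 0.605 and 0.216. The 9 α subunits that pair only with β1 did not pass against Itgb1. Itga1 lay 0.30 above it in change (−0.02 to 0.63) and Itga7 0.08 below it (−0.39 to 0.23).

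**Figure D4:**
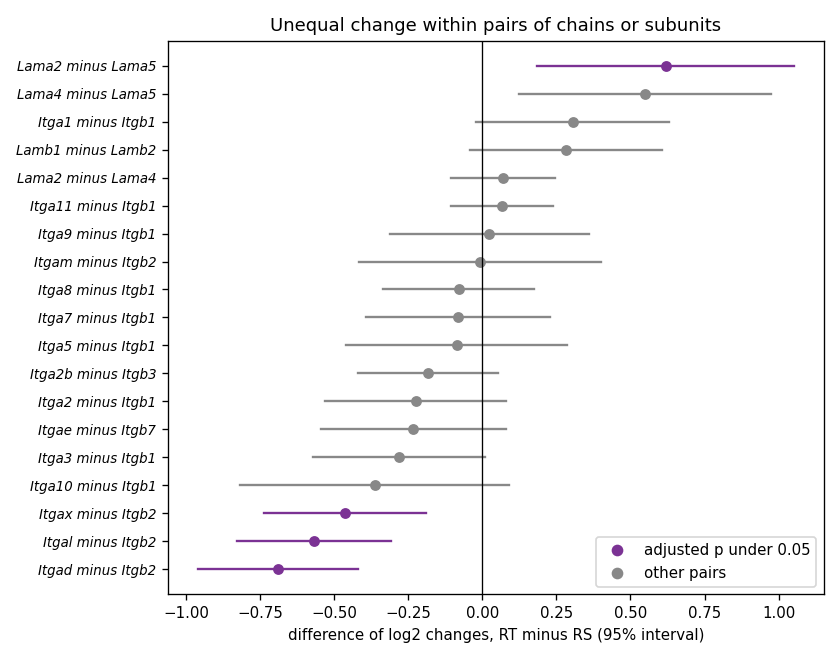
Difference of 2 log2 changes (RT minus RS, horizontal axis) within 19 pairs of integrin subunits or laminin chains, first gene minus second gene, with its 95% interval. Purple marks the 4 pairs with an adjusted p under 0.05, Itgal, Itgax and Itgad against Itgb2 on the negative side and Lama2 against Lama5 at 0.62.

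Genes that work beside laminins and integrins were taken as 4 lists, against a background in which 24.6% of all genes were called, 13.9% higher and 10.7% lower. The mean log2 signal of each list lay above the array-wide median of 4.489. Of the transcript clusters brighter than that median, 20.6% were higher and 10.7% lower, a nearer comparison for these lists. Without RS-4 and RS-6, 5.7% of all transcript clusters were higher, and with the spread covariate 2.53%. Of 24 partners of laminin in the basement membrane, 11 rose, 0 fell and 13 fell short, with a median change of 0.17. Nid1, which links laminin to collagen IV, rose from a mean of 7.36 ± 0.38 to 8.09 ± 0.18 (SD, n = 6 each), a change of 0.73 (standard error 0.15, adjusted p = 0.00521 from limma). The matricellular gene Smoc2 rose by 0.73 and Fbln2 (fibulin-2), which binds laminin and nidogen, by 0.69. The higher genes numbered 10 when RS-4 and RS-6 were left out and 4 under the spread covariate.

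Of 33 integrin ligands other than laminins, 19 rose, 0 fell and 14 fell short, with a median change of 0.34. Fn1 (fibronectin) had the largest change, 1.04 with a standard error of 0.22 (limma, adjusted p = 0.00608), and was followed by Ccn3 at 0.89 and Vwf (von Willebrand factor) at 0.71. The count was 10 without RS-4 and RS-6 and 6 with the spread covariate. Of 48 integrin adaptors and focal adhesion genes, 21 were higher and 2 lower, with a median change of 0.22. Dab2, a clathrin adaptor that takes up integrins, rose by 0.72, and the tetraspanins Cd9 and Cd81, which associate with integrins, by 0.69 and 0.67. Tns1 (tensin 1), which ties β tails to actin, fell by 0.82 (standard error 0.10, adjusted p = 3.92e-04), and Parvg, a parvin of leukocytes, fell by 0.35. Without RS-4 and RS-6, 13 adaptors were higher and 1 lower, and with the spread covariate 4 and 1.

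Of 21 non-integrin laminin receptors, enzymes of the laminin-binding sugar of dystroglycan and dystrophin complex genes, 6 rose, 0 fell and 15 fell short, with a median of 0.20. The syndecans Sdc2 and Sdc3 rose by 0.50 and 0.42, and Sspn (sarcospan) by 0.38. Dag1, the gene of dystroglycan itself, chosen after its values were seen, rose by 0.32 (limma, standard error 0.11 and adjusted p = 0.0551). The 1 gene of this list still higher when RS-4 and RS-6 were left out was Sdc3. The count was 11 without RS-1 and 3 without RT-6. With the spread covariate limma called 0 of them, while it called 5.60% of all transcript clusters.

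Markers of several cell types that carry laminins and integrins moved beside these genes, and their part in the results was not tested. These lists are not independent of those above: the fibroblast list shares Col1a1, Col1a2 and Col3a1 with the integrin ligands, all called higher, the endothelial list shares Vwf (called higher) and Egfl7, and the satellite cell list shares Sdc4 and Vcam1. The counts below stand against 13.9% of all genes called higher and 10.7% called lower. The mean log2 signal of the lymphocyte, neutrophil and mast cell, and platelet lists lay below the array-wide median of 4.489. Of the transcript clusters dimmer than that median, 3.21% were higher and 15.3% lower. The other marker lists lay above it, where 20.6% were higher and 10.7% lower. Of 17 macrophage markers, 12 were higher and 0 lower. Their summed linear signal was 458 to 747 in RS and 854 to 1170 in RT. Cd74 and Lyz2 rose by 1.27 and 1.25. Adgre1, an adhesion receptor long used as a macrophage marker and chosen here after its values were seen, rose by 0.44 (standard error 0.12, limma adjusted p = 0.0232), a call that ended with the spread covariate. Of 13 fibroblast markers 11 were higher, with sums of 3230 to 6300 in RS and 6410 to 8130 in RT. Of 9 tendon markers 7 were higher, with sums of 411 to 939 and 928 to 1360. The tendon list had the largest median change of the marker lists, 1.1, and its Fmod and Kera rose by 1.51 and 1.36. Endothelial markers had 8 of 14 higher (1430 to 2040 and 2020 to 2490), and markers of pericytes and smooth muscle 6 of 11 (2610 to 3880 and 3870 to 4120). In these 5 lists 0 genes were lower. The brightest gene of the pericyte and smooth muscle list was Des (desmin), which muscle fibers also express. Its mean log2 signal was 10.78 in RS and 10.94 in RT, and it was not called. Des weighs most in the sums of that list, which are therefore no measure of pericytes and smooth muscle alone. Lymphocyte markers had 0 of 11 higher and 2 lower, with sums of 106 to 131 in RS and 97.1 to 111 in RT, and a median change of −0.14. Schwann cell markers had 2 of 10 higher and 1 lower (373 to 763 and 558 to 1720), with a median change of −0.025. Their brightest gene Pmp22, which weighs most in these sums, rose by 1.15 (mean 7.89 in RS and 9.04 in RT). Sox10 fell by 0.38. Satellite cell markers had 1 of 8 called in each direction (308 to 342 and 328 to 392). Markers of neutrophils and mast cells had 2 of 11 higher (108 to 128 and 126 to 141). Those 2 were the mast cell genes Mcpt4 (0.81) and Cpa3 (0.69), and none of the neutrophil markers was called. Platelet sums were 77.7 to 101 in RS and 89.0 to 94.7 in RT. The deposited values hold no detection call, so which markers lay at background is not known. Without RS-4 and RS-6, 11 macrophage, 8 fibroblast, 6 tendon, 6 endothelial and 4 pericyte and smooth muscle markers were higher. Over the array 5.7% of transcript clusters were higher in that fit. With the spread covariate the counts were 8 macrophage, 2 fibroblast, 5 tendon, 2 endothelial and 4 pericyte and smooth muscle markers. The share over the array was then 2.53% higher.

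**Figure D5:**
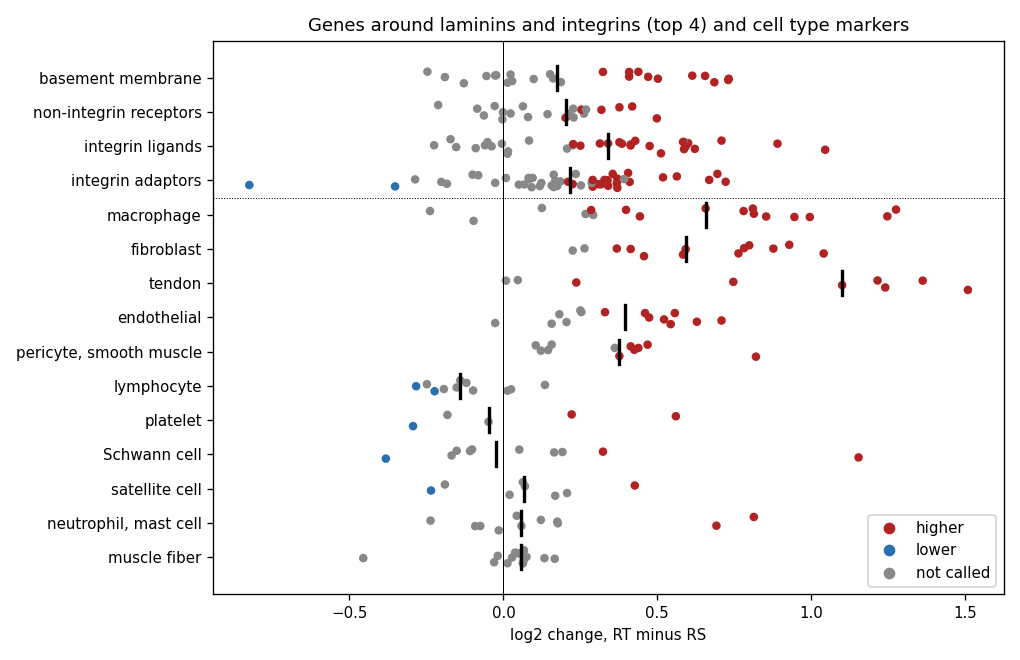
Log2 change (RT minus RS, horizontal axis) of each gene in 4 lists of genes around laminins and integrins (above the dotted line) and 11 lists of cell type markers, 1 point per gene. Red points were called higher, blue points lower, and gray points were not called. The black bar is the list median, which is 0.34 for other integrin ligands, 1.1 for tendon markers, 0.66 for macrophage markers and 0.06 for muscle fiber markers.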

How the data were processed

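Total RNA (250 ng) of gastrocnemius from 12 mice, 6 RS and 6 RT, was hybridized to Affymetrix Mouse Gene 1.0 ST arrays, 1 per mouse. The deposited values are log2 signals per transcript cluster, which the authors made with RMA (background correction, normalization between arrays and probe summary); their methods also name SST-RMA, so which variant made the values is not settled. They run from 0.53 to 13.67, hold no detection call, and their precision is limited by the number of arrays. Such normalization can shift dim and bright transcripts apart when arrays differ in spread.

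Groups came from the sample labels. Transcript clusters were named through the platform annotation of 2016, and names with more than 1 symbol were left out, among them 3 that name Rpl35 and Itgam together. All 39 members matched RefSeq. All 28944 transcript clusters were fitted with limma 3.58.1 (R 4.3.3; lmFit, eBayes, two-sided); a call needed an unadjusted p under 0.05 as well as an adjusted p (Benjamini-Hochberg) under 0.1. The transcript cluster with the highest mean represented a gene. Single values and pairs were tested with an exact permutation test over the 924 splits of 6 against 6 (SciPy 1.17.1). The fit was tested on simulated data. Each array was left out in turn, and other normalizations, tests, filters, array weights, a replicate block and a stricter threshold were tried.

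Every laminin and integrin gene is named. Called members have values by group, and each pathway list gives up to 3 called genes per direction and each marker list up to 2 examples, by size of change. Dag1, Adgre1 and Des were named beyond these rules after their values were seen. Members and lists were chosen with earlier results of these data known. Settings for marker lists and pairs were added after seeing the data.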

Additional observations from a re-analysis of the deposited data

Results flagged for a closer look

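Among the 76 groups of 6 values examined (38 genes in RS and in RT), 1 held a mouse far from the other 5. Itga10, a collagen receptor subunit of cartilage, had a log2 signal of 4.88 in RT-5, while the nearest other RT mouse was at 4.61 and the lowest at 4.46, so that the gap took 0.643 of the range. Chance gives such a gap in about 1 in 20 groups. Itga10 was not called between RS and RT.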

How the results depend on the processing

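No gene called among the 38 changed direction under any alternative, and of 460 comparisons (20 called genes in each repeated fit) 379 kept the call and 81 lost it. Scaling moved the median change of all transcript clusters by at most 0.075. Over the array, 3445 were higher and 3764 lower; these counts were 5883 and 2414 with each array centered on its median, 732 and 888 with the spread covariate, 1649 and 1791 without RS-4 and RS-6, 2092 and 2307 at an adjusted p under 0.05, and 2360 to 4573 and 2564 to 4806 when 1 array was left out. The 16 higher members became 8 with the spread covariate and 10 without RS-4 and RS-6 (12 to 18 without 1 array). The 4 lower members became 2 under further quantile normalization, cyclic loess, array weights, the replicate block and the stricter threshold, 1 under centering, and 0 with the spread covariate and without RS-4 and RS-6 (2 to 6 without 1 array). Higher basement membrane genes (11) became 4 with the spread covariate (11 to 12 without 1 array, with 0 to 1 lower). Higher laminin receptor genes (6) became 1 under quantile normalization, 2 under cyclic loess, 0 with the spread covariate, 1 without RS-4 and RS-6 and 3 at the stricter threshold (3 to 11 without 1 array, with 0 to 1 lower). Higher ligands (19) became 6 and 10 with the spread covariate and without RS-4 and RS-6 (14 to 20 without 1 array, with 0 lower). Higher adaptors (21) became 11, 10, 4 and 13 under quantile normalization, cyclic loess, the spread covariate and without RS-4 and RS-6 (19 to 24 without 1 array); lower adaptors (2) became 5 without the dimmest 33.3% of transcript clusters and 1 under quantile normalization, centering, the spread covariate, the omission of RS-4 and RS-6 and the stricter threshold (1 to 5 without 1 array). The cause was not tested.

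Genes that were not called changed sign as follows. Itga10 was at 0.0465 under quantile normalization, 0.0667 under centering, 0.0583 under loess, 0.1825 with the spread covariate, 0.0501 with array weights and 0.1008 without RS-4 and RS-6 (−0.0617 to 0.0573 without 1 array). Itgb2l was at 0.0435, 0.0083, 0.0553, 0.2056, 0.0462 and 0.1417 in these settings (−0.1423 to 0.0637). Itgax was at 0.0595, 0.0300 and 0.0551 under quantile normalization, centering and loess (−0.094 to 0.0040). Lama5 was at 0.0450 under centering, 0.0662 with the spread covariate, 0.0239 with array weights and 0.0558 without RS-4 and RS-6 (−0.0837 to 0.0103). Itga6 was at −0.0076 under loess, −0.1745 with the spread covariate and −0.0708 without RS-4 and RS-6. Itgb3 was at 0.0671 and 0.0208 and Itgb4 at 0.0479 and 0.0225 in these last 2 settings, Itga3 was at −0.0006 with the spread covariate, and Itgb7 ran from −0.0343 to 0.1483 without 1 array.

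With the replicate number as a block, 2873 transcript clusters were higher and 3174 lower, with 16 and 2 among the members, 11 basement membrane genes, 4 laminin receptor genes and 19 ligands higher, and 20 adaptors higher and 3 lower. Mice of the same number did not deviate together (correlations of −0.24 to 0.11). These few correlations gave no sign that the numbers pair the mice, but they cannot exclude it.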
